A study of Mus musculus with 15 samples.

Results

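Glucose uptake, glycolysis, lactate handling and the pentose phosphate pathway were followed through 37 genes in basophils, natural helper cells and eosinophils sorted from mouse lung. The genes were chosen by name: 3 sugar transporters of the Slc2a family, 3 hexokinases, 7 enzymes of upper and 7 of lower glycolysis, 3 Pfkfb regulators, 4 genes of lactate handling, 7 pentose phosphate enzymes, and Pdk1, Pdha1 and Hif1a. All 37 are among the 21110 genes of the deposited table, and all 37 entered the tests. The RNA sequencing covered 15 libraries in 8 groups, from mice of strain C57BL6/J that were either untreated (naive) or given papain. Papain is a plant protease that provokes allergic-type inflammation in the airways, and it was given into the nose at 50 µg per mouse over 3 days. Basophils (IgE receptor and CD49b positive, c-kit negative) came from papain mice and naive mice. Natural helper cells, which are innate lymphoid cells that make type 2 cytokines, came from papain mice carrying an allele labelled 3'UTRKO, from other papain mice and from naive mice, and were gated as lineage-negative cells with Thy1.2, the IL-7 receptor and CD25. Eosinophils (SiglecF positive, low Gr1, not autofluorescent) came from papain mice as a CD11c+ and a CD11c- fraction and from naive mice. Each group had 2 libraries except 3'UTRKO, which had 1. The labels name neither the gene of the 3'UTRKO allele nor whether replicates came from separate or pooled animals. That allele could therefore not be checked, and the spread between replicates may be technical.

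Cells take up glucose through Slc2a transporters, trap it with hexokinases and split it in glycolysis to pyruvate, which enters mitochondria or is reduced to lactate and exported by monocarboxylate carriers. The pentose phosphate pathway branches off after the hexokinase step and yields NADPH, which granulocytes use for oxidant production and for protection against oxidants, and ribose for nucleotides. Activated lymphocytes and myeloid cells are known for raising glycolysis, and the transcription factor HIF-1, whose regulated chain is Hif1a, is a textbook activator of many glycolytic genes.

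Values are whole-number FPKM, fragments scaled to transcript length and library size, and levels are set side by side as deposited. Comparison between libraries depended on the scaling, as given below. Rounding and the processed copies named below limit comparison between genes. Differences are of log2(FPKM + 1), papain minus naive unless another order is named, with the standard error of the limma fit, and a gene was called when the Benjamini-Hochberg adjusted p over 14257 genes was under 0.05. Read depth is unknown. Library sums lay between 374841 and 570208 FPKM, 9995 to 13049 genes were above 0, and small RNA genes held 6.48% to 25.4% of a library. Replicates correlated at 0.841 (papain basophils) to 0.961 (papain natural helper cells) across genes. Each sort held its own markers: 10 of 10 basophil markers were above 0 in all basophil libraries. The same held for 10 of 10 natural helper cell markers in natural helper cells and 9 or 10 of 10 eosinophil markers in eosinophils. Being above 0 did not part the sorts, since CD11c- eosinophils also had 10 of 10 natural helper cell markers. Summed natural helper cell markers were at least 1793 FPKM in their own sort and at most 345 elsewhere. Summed eosinophil markers were at least 729 in their own sort and at most 530 elsewhere. Summed basophil markers overlapped, with 702 in papain basophil library 1 and 760 in naive eosinophil library 1. Epx, a defining granule protein of eosinophils, was nevertheless listed at 0 in 4 of 6 eosinophil libraries. Markers of other cells differed between papain and naive sorts, as given beside the results below. Gapdh, Pgk1, Pgam1, Eno1, Ldha and Tpi1 have near-identical processed copies in the mouse genome, so the authors' counting could have split their reads, and no use of strand is stated.

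**Figure D1:**
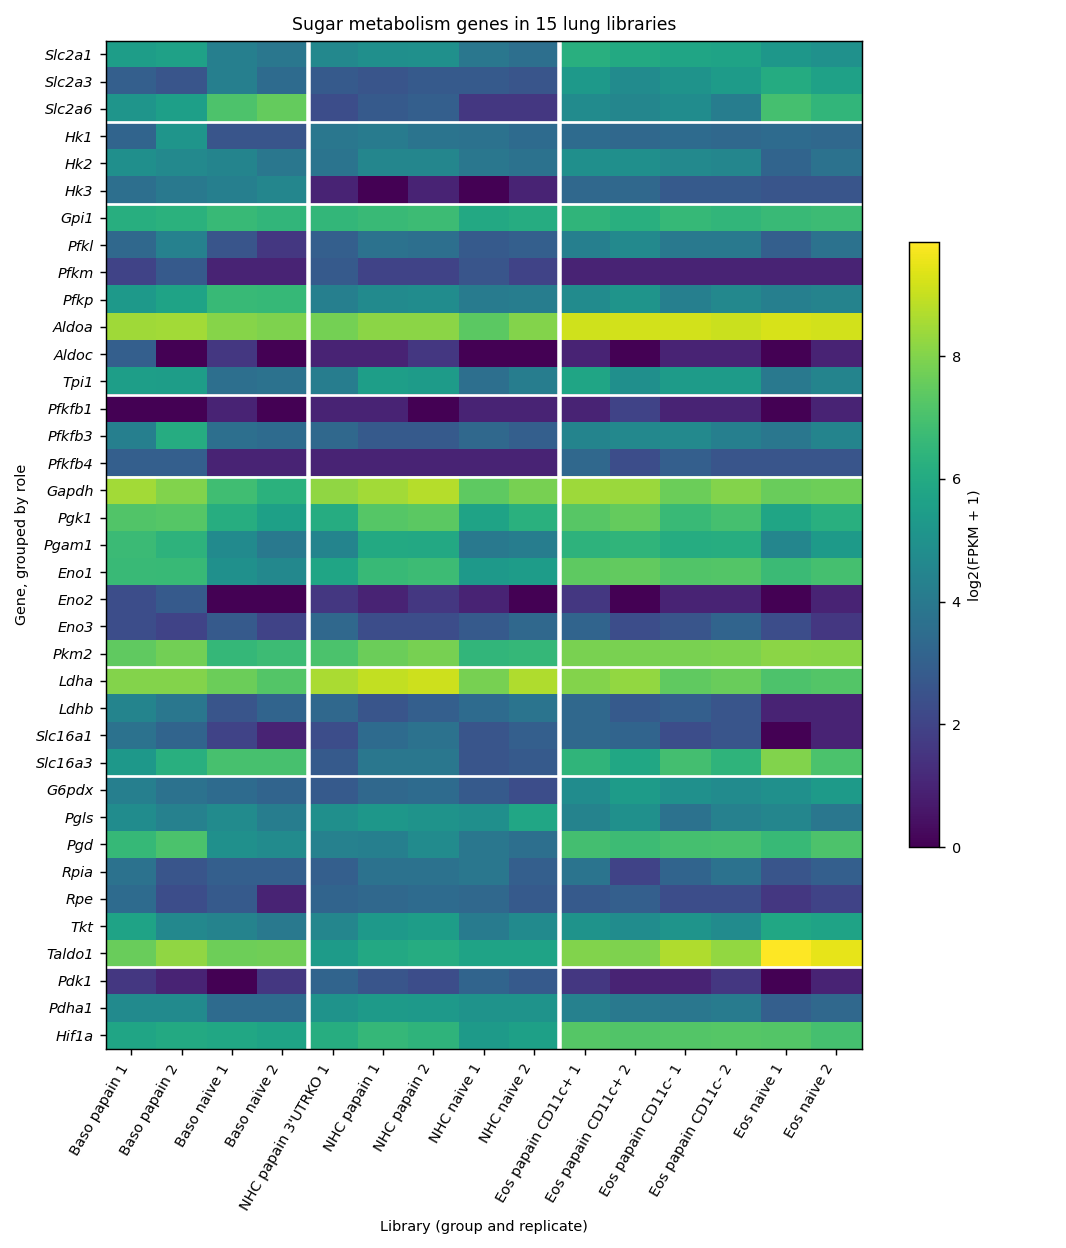
Level of the 37 genes in each of the 15 libraries, as log2(FPKM + 1), with genes in rows by role and libraries in columns by cell type; white lines part roles and cell types. Aldoa, Ldha, Gapdh, Pkm2 and Taldo1 reach the highest levels, and Taldo1 is highest in the 2 naive eosinophil libraries (924 and 725 FPKM).

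Summed over the 37 genes, the share of all FPKM was 0.494% and 0.448% in papain basophils, against 0.397% and 0.375% in naive basophils. It was 0.350% in 3'UTRKO natural helper cells and 0.548% and 0.543% in the other papain natural helper cells, against 0.248% and 0.308% in naive natural helper cells. Eosinophils had the largest share and the opposite order: 0.651% and 0.582% in CD11c+ and 0.740% and 0.657% in CD11c- papain cells, against 0.815% and 0.811% in naive cells. Taldo1 weighed heavily there, with 924 and 725 of the 3355 and 3070 FPKM of the members in naive eosinophils. It had 254 and 248 FPKM in CD11c+ and 409 and 306 in CD11c- papain cells. By value, more members were higher than lower against naive eosinophils: 24 and 10 in CD11c+ and 25 and 10 in CD11c- cells. The order of the summed share is thus not that of most members. In every cell type the papain and naive libraries did not overlap. In these bulk samples, fewer cells of a type and less RNA per cell cannot be told apart.

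Sequence around the HIF core motif is shown for 7 of the members that were called higher after papain in at least 1 comparison. HIF-1 is a textbook activator of glycolytic genes. The 7 were not all called in the same comparisons. The start regions come from RefSeq (build GRCm38.p6), 250 bases before and 50 after each annotated start. Entries were found for 36 of the 37 members; the exception was Slc2a3, and Pkm2 was matched as Pkm. The core, ACGTG on either strand, is in capitals, which read CACGT where it lies on the other strand, and each window holds 30 bases.
Slc2a1: gtcccgccccggACGTGctccccaggcccc
Hk2: aatgagcacatcCACGTcactgtccggggc
Pgk1: aaatggaagtagCACGTctcactagtctcg
Pgam1: cgctccttgcttACGTGcgctccgtgactg
Pkm2: ctccgatccggtCACGTccgcgccgcagca
Ldha: cgtgggttcccgCACGTccgctgggctccc
Slc16a1: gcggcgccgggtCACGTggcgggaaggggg
These windows lie at chr4:119108697-119108726 (Slc2a1, + strand), chr6:82774489-82774518 (Hk2, - strand), chrX:106186957-106186986 (Pgk1, + strand), chr19:41911745-41911774 (Pgam1, + strand), chr9:59657140-59657169 (Pkm2, + strand), chr7:46845758-46845787 (Ldha, + strand) and chr3:104638452-104638481 (Slc16a1, + strand). All 7 lie before the annotated start, with the first base of the core at position -36 (Slc2a1), -52 (Hk2), -131 (Pgk1), -114 (Pgam1), -75 (Pkm2), -34 (Ldha) and -200 (Slc16a1). The core was found in 17 of the 36 members, where 21.78% of all 27025 genes held it. By start region it was found in 20 of the members' 53 (37.74%), against 19.62% of all 32851 start regions. The E-box CACGTG, which contains the core, was found in 5 members, where 8.09% of all genes held it. It was in 9.43% of the members' start regions, against 7.15% of all, and the Slc16a1 window holds it. Of the 20 members called higher after papain in at least 1 comparison, 12 hold the core: those shown and Hk1, Pfkm, Pfkfb3, Gapdh and Hif1a, with the Hk1 and Gapdh cores after the start. The other 8 (Pfkl, Tpi1, Pfkfb4, Eno1, Eno2, Ldhb, Pgd and Pdha1) do not hold these letters in their start regions. The core was also found in Hk3, Aldoa, Aldoc, G6pdx and Slc16a3, which were not called higher after papain. Of these, Slc16a3 was called lower in papain basophils. A match in a window is a description of sequence only.

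Across the 4 comparisons of papain with naive cells, more members were called higher than lower, with the most calls in basophils. In papain against naive basophils, 17 of 37 were called higher, where 22.1% of all genes were called higher, and 4 were called lower, where 3.88% of all genes were. Their median log2 difference was 0.93, against 0.50 over all genes. In papain against naive natural helper cells, 5 were called higher (all genes: 0.54%) and 0 lower (all genes: 0.245%), with 18 at an unadjusted p under 0.05 and a median of 0.72, against 0.09 over all genes. CD11c+ papain eosinophils against naive eosinophils had 10 called higher (all genes: 9.93%) and 2 lower (all genes: 2.2%), with a median of 0.46 against 0.34 over all genes. CD11c- papain eosinophils, set against the same naive libraries, had 3 called higher (all genes: 1.87%) and 2 lower (all genes: 0.372%), with a median of 0.26 against 0.21. In both eosinophil comparisons the medians of the 37 genes thus lay close to those of all genes. The split of the members' calls moved with the scaling. Median-ratio scaling gave 13 higher and 5 lower in basophils, 2 and 0 in natural helper cells, 5 and 5 in CD11c+ and 2 and 2 in CD11c- eosinophils. Quantile normalization gave 10 and 5 in basophils, 3 and 0 in natural helper cells, 6 and 4 in CD11c+ and 0 and 2 in CD11c- eosinophils. A pseudocount of 5 also gave 0 and 2 in CD11c- eosinophils, where it called 1.29% of all genes. Of all 14257 genes, median-ratio scaling called 2229 higher and 1172 lower in basophils and 20 and 32 in natural helper cells. With quantile normalization those numbers were 1428 and 1720 in basophils and 30 and 26 in natural helper cells.

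Most of the basophil calls, 11 of 21, held without any 1 of the 4 libraries, and the count was 13 (without naive library 2) to 18. Far fewer held elsewhere: 1 of 5 in natural helper cells (counts of 1 to 6, lowest without papain library 2), 4 of 12 in CD11c+ eosinophils (4 to 9, lowest without naive library 1) and 0 of 5 in CD11c- eosinophils (0 to 1, lowest without naive library 1). With the spread taken from the compared groups alone, which leaves 2 libraries a side, the counts were 1 in basophils (Tpi1), 2 in natural helper cells, 1 in CD11c+ and 0 in CD11c- eosinophils. Among all genes, that fit called 3.28% in basophils and 3.65% in natural helper cells, so these 2 counts were small beside a similar share of all genes. Scaling mattered for the direction of all genes: among all calls in basophils, 85.1% were higher as deposited, 65.5% with median-ratio scaling and 45.4% with quantile normalization, and the median of all genes was 0.50, 0.16 and -0.08. Under the same 3 scalings the median of the 37 genes in basophils was 0.93, 0.46 and 0.41. The share of higher calls among all genes likewise moved in natural helper cells (68.8%, 38.5% and 53.6%), in CD11c+ eosinophils (81.8%, 56.7% and 51.2%) and in CD11c- eosinophils (83.4%, 72.9% and 73.5%).

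Markers of other cells moved with these comparisons. The summed level of 10 basophil markers was 702 to 2108 FPKM in papain basophils, against 5872 to 6739 in naive basophils. Fibroblast markers, with 7 of 7 above 0 in papain libraries, summed to 1411 to 3846 FPKM, against 5 to 49 in naive basophils. Epithelial markers (12 of 12 above 0 in all 4 libraries) were at 20912 to 35717 in papain, against 6705 to 8772 in naive basophils. Scgb1a1 made up most of each sum, with 19550 and 32382 FPKM in papain and 6363 and 8531 in naive basophils. Most other epithelial markers were higher in papain too, while Cdh1 was lower (39 and 121, against 139 and 150). Alveolar macrophage markers were at 286 to 11638 in papain and 42 to 53 in naive basophils. Monocyte and macrophage markers (10 of 10 above 0 in papain, 7 to 10 in naive libraries) were at 1148 to 4900 in papain and 155 to 735 in naive basophils. Neutrophil markers (8 of 8 above 0 in papain, 6 of 8 in naive libraries) were at 3221 to 7535 in papain and 268 to 537 in naive basophils. S100a8 and S100a9 made up most of the papain sum, while Cxcr2 had 33 and 21 in papain and 32 and 26 in naive basophils. The spread between the 2 papain basophil libraries was itself wide in these lists. In eosinophils, fibroblast markers summed to 2253 to 2343 FPKM in the CD11c+ and 875 to 1074 in the CD11c- fraction, against 7 to 23 in naive cells, and alveolar macrophage markers to 1085 to 1288 and 305 to 406, against 178 to 260. Epithelial markers there summed to 8527 to 10107 FPKM in the CD11c+ and 6669 to 9136 in the CD11c- fraction, against 729 to 1825 in naive cells. Scgb1a1 again made up most of each sum. In natural helper cells, alveolar macrophage markers summed to 115 FPKM in 3'UTRKO and 172 to 971 in other papain cells, against 63 to 110 in naive cells. Fibroblast markers summed to 180 in 3'UTRKO and 501 to 670 in other papain cells, against 326 to 468 in naive cells. T cell markers, with 7 of 7 above 0 in each of these libraries, went down. They summed to 149 in 3'UTRKO and 161 to 198 in other papain cells, against 275 to 288 in naive cells. The sort's own markers summed to 3280 in 3'UTRKO and 4214 to 4265 in other papain cells, against 1793 to 3769 in naive cells. Small RNA genes held 17.7% of the 3'UTRKO library and 13.7% and 11.02% of the other papain libraries, against 25.4% and 21.7% of the naive natural helper cell libraries. The part of these shifts in the results was not tested. Rescaling every library to its sum without small RNA genes called 14 members higher and 5 lower in basophils (18 of them also called as deposited), 6 and 0 in natural helper cells (5 shared), 5 and 4 in CD11c+ (7 shared) and 2 and 2 in CD11c- eosinophils (3 shared). Among all genes that rescaling called 20.3%, 0.751%, 10.4% and 2.71% in the same 4 comparisons, in either direction.

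**Figure D2:**
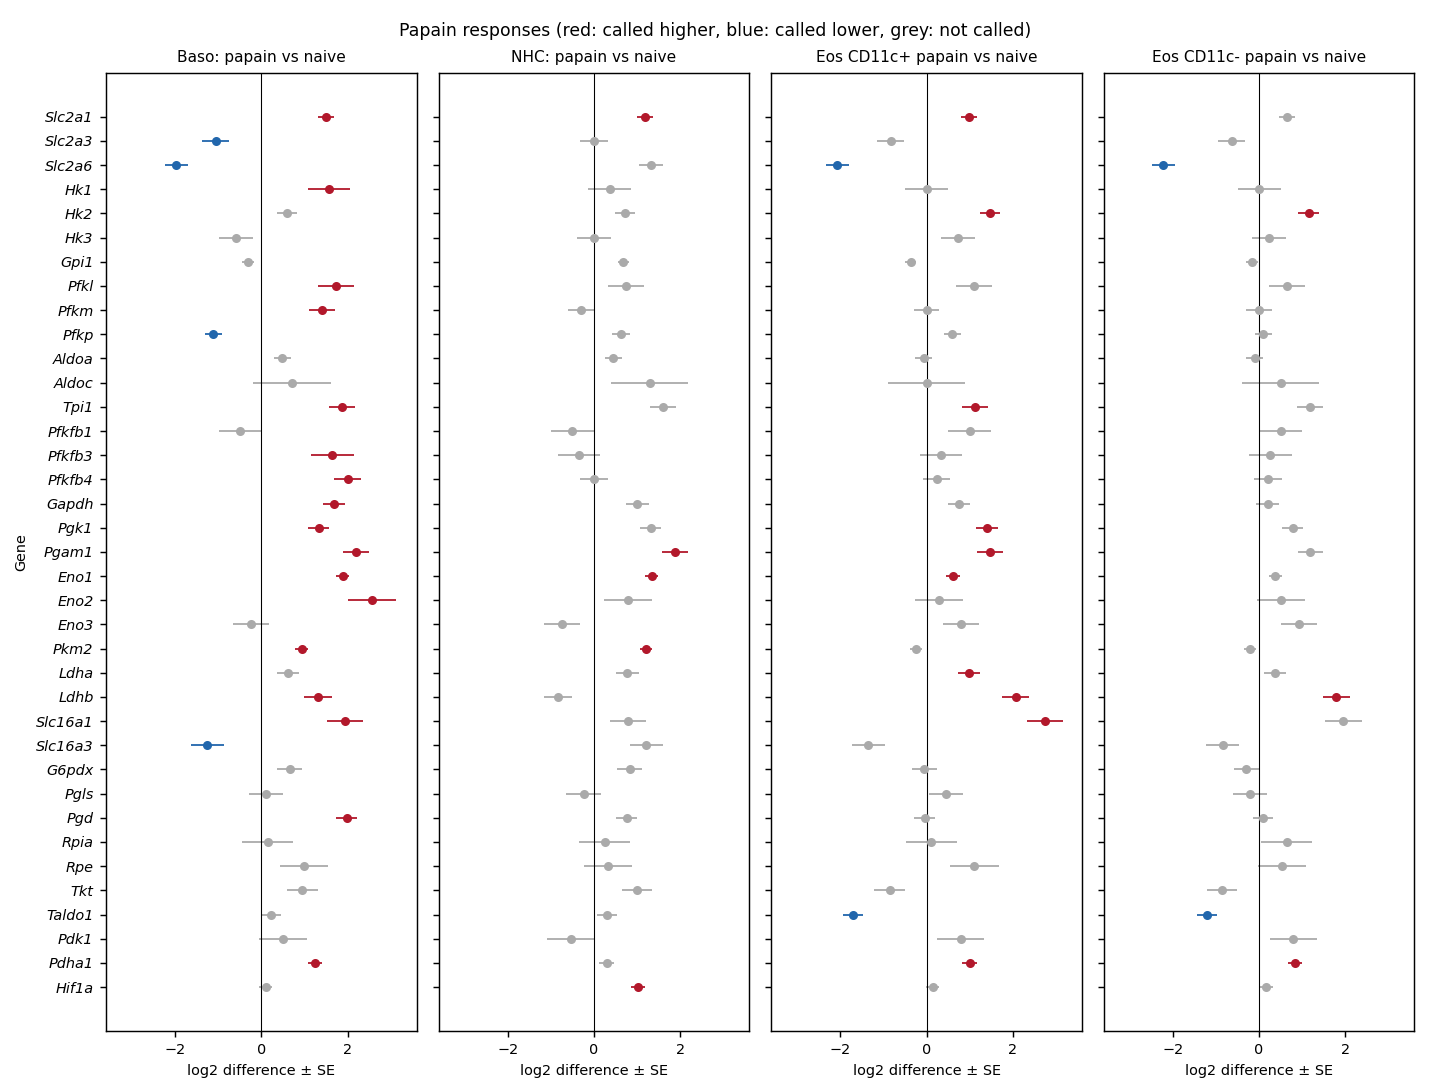
Difference of papain and naive cells on the log2(FPKM + 1) scale for each of the 37 genes in 4 comparisons, as points with the standard error of the limma fit; red marks genes called higher, blue genes called lower and grey genes not called. Slc2a1, Pgam1 and Eno1 are red in basophils, natural helper cells and CD11c+ eosinophils, and Slc2a6 is blue in basophils and in both eosinophil fractions.

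The sugar transporters changed in opposite directions. Slc2a1, the basal glucose transporter of most cells, had 44 and 49 FPKM in papain basophils, against 18 and 14 in naive basophils (2.91-fold; log2 difference 1.49 ± 0.18, adjusted p = 0.00105). Natural helper cells had 23 FPKM in the 3'UTRKO library and 29 and 30 in the other papain libraries, against 14 and 11 in naive libraries (papain over naive 2.36-fold; 1.18 ± 0.18, adjusted p = 0.0206). Eosinophils had 73 and 62 in the CD11c+ fraction and 54 and 52 in the CD11c- fraction, against 36 and 31 in naive cells. The papain libraries thus lay above the naive ones in all 3 cell types, past the test in CD11c+ eosinophils (0.99 ± 0.18, adjusted p = 0.0112) and not in CD11c- eosinophils (0.65 ± 0.18, adjusted p = 0.123). The natural helper cell call was lost without papain library 1 (adjusted p = 0.12), papain library 2 (0.151) or naive library 2 (0.0732) and after median-ratio scaling (0.0964), and the CD11c+ call without naive library 1 (0.0503) or 2 (0.0657) and after median-ratio scaling (0.0663).

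Slc2a6, a family member that sits on lysosomal membranes, was the dominant transporter transcript of naive basophils and naive eosinophils and fell in both. It had 34 and 46 FPKM in papain basophils, against 138 and 181 in naive basophils (-1.97 ± 0.27, adjusted p = 0.00177). In eosinophils it had 26 and 22 in the CD11c+ and 27 and 17 in the CD11c- fraction, against 122 and 88 in naive cells (-2.07 ± 0.27, adjusted p = 0.00257, and -2.22 ± 0.27, adjusted p = 0.00559). Natural helper cells barely expressed it, with 4 FPKM in 3'UTRKO and 6 and 7 in other papain cells, against 2 and 2 in naive cells (papain minus naive 1.32 ± 0.27, adjusted p = 0.0801). No basophil or eosinophil papain library overlapped the naive ones, and the call was lost only in CD11c- eosinophils without naive library 1 (adjusted p = 0.0609) among fits that left out 1 library. Slc2a3, a high-affinity transporter of neurons and leukocytes, had 7 and 5 FPKM in papain basophils, against 18 and 10 in naive basophils (-1.06 ± 0.32, adjusted p = 0.0378). That call was lost without papain library 2 (adjusted p = 0.159) or naive library 1 (0.174). Slc2a3 was highest in eosinophils, with 38 and 26 in CD11c+ and 32 and 41 in CD11c- papain cells, against 66 and 49 in naive cells, neither past the test; natural helper cells of every group had 5 or 6.

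By these levels, the make-up of the 3 transporters differed between groups. Slc2a6 made up 40.0% and 46.0% of the FPKM of the 3 transporters in papain basophils, against 79.3% and 88.3% in naive basophils. In eosinophils it made up 19.0% and 20.0% in the CD11c+ and 23.9% and 15.5% in the CD11c- fraction, against 54.5% and 52.4% in naive cells. Of these 3, Slc2a1 had the largest share in natural helper cells, at 69.7% in 3'UTRKO and 72.5% and 69.8% in other papain cells. In naive natural helper cells it had 63.6% and 61.1%. Slc2a8, a family member outside the 3, had 11 FPKM in 3'UTRKO and 22 and 15 in other papain natural helper cells. It had 4 and 4 in naive ones. Counting it would lower the Slc2a1 shares, most of all in papain cells, so their rise after papain holds only among the 3.

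Hexokinases trap glucose as glucose phosphate. Hk2, the inducible form, had 29 and 29 FPKM in CD11c+ and 24 and 22 in CD11c- papain eosinophils, against 8 and 12 in naive eosinophils (1.47 ± 0.24, adjusted p = 0.00659, and 1.15 ± 0.24, adjusted p = 0.0437). It had 29 and 24 in papain basophils, against 21 and 14 in naive basophils (0.59 ± 0.24, adjusted p = 0.0983), and 13 in 3'UTRKO and 22 and 22 in other papain natural helper cells, against 14 and 12 in naive ones (papain minus naive 0.72 ± 0.24, adjusted p = 0.275). Apart from 3'UTRKO, papain libraries thus lay above naive ones in each cell type, past the test in eosinophils. The CD11c+ call was lost without naive library 1 (adjusted p = 0.0567), and the CD11c- call without each single library (0.0593 to 0.319) and under quantile scaling (0.0585). Hk1, the general form, had 8 and 34 FPKM in papain basophils, against 5 and 5 in naive basophils (1.56 ± 0.50, adjusted p = 0.0476), so its call rests on the second papain library; without it the adjusted p was 0.0698, and without naive library 1 or 2 it was 0.119 and 0.172. The Hk1 call was also lost under median-ratio (adjusted p = 0.144) and quantile scaling (0.219). Elsewhere Hk1 stayed between 9 and 16 FPKM. Hk3, a form of myeloid cells, had 11 and 15 FPKM in papain basophils, against 18 and 22 in naive basophils (-0.59 ± 0.40, adjusted p = 0.312), 5 to 9 in eosinophils and at most 1 in natural helper cells.

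**Figure D3:**
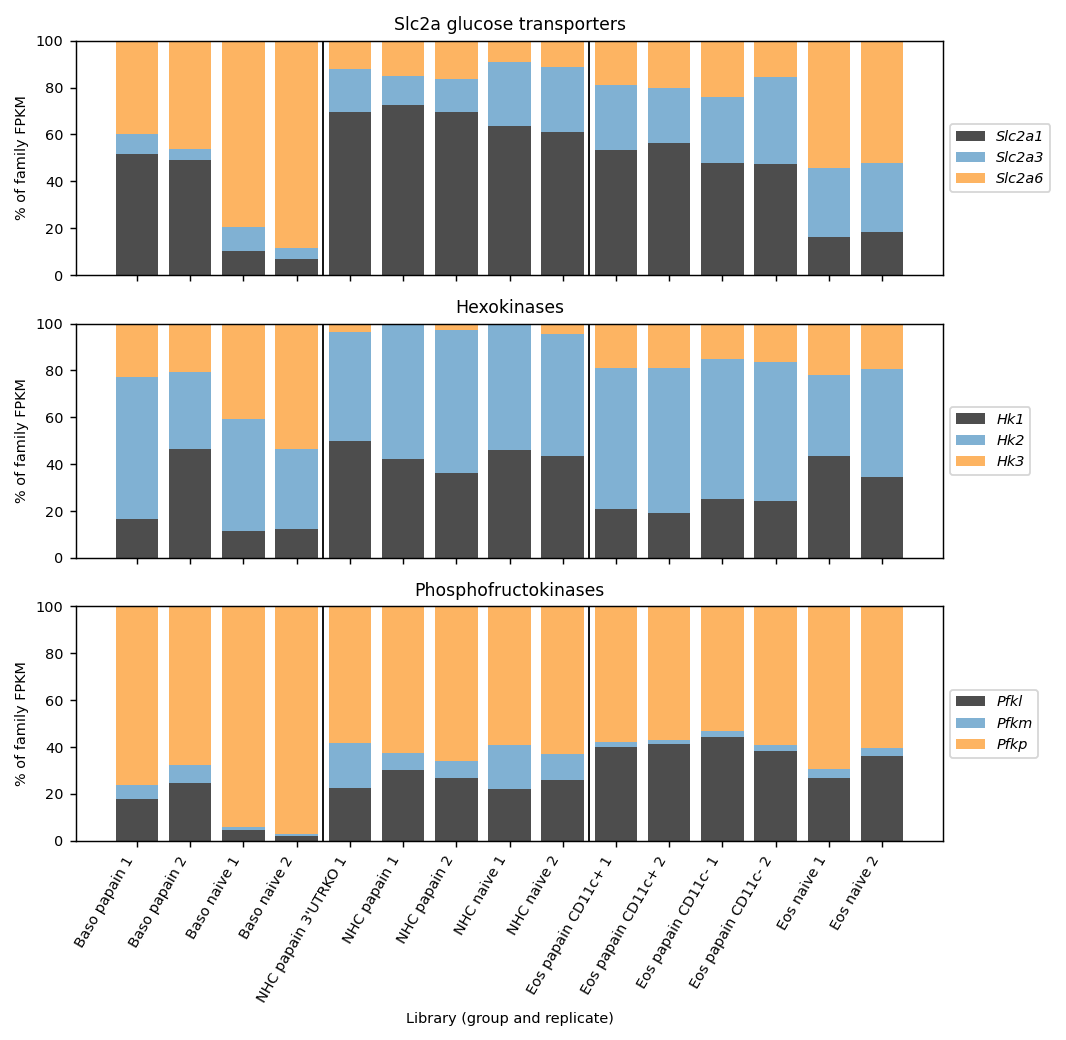
Share of each isozyme in the summed FPKM of its family in each of the 15 libraries, as stacked bars from 0 to 100%, for glucose transporters, hexokinases and phosphofructokinases. Slc2a6 and Pfkp fill most of the naive basophil bars (79.3% and 88.3%, and 94.2% and 97.0%) and less of the papain basophil bars.

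In upper glycolysis, the phosphofructokinases, which catalyse the committed step, changed their balance in basophils. Pfkp, the platelet-type form, had 38 and 52 FPKM in papain basophils, against 98 and 97 in naive basophils (-1.12 ± 0.20, adjusted p = 0.00544), a fall that held without each single library. The liver-type Pfkl had 9 and 19 in papain basophils, against 5 and 2 in naive ones (1.74 ± 0.42, adjusted p = 0.0174), and the muscle-type Pfkm 3 and 6 in papain, against 1 and 1 in naive basophils (1.4 ± 0.30, adjusted p = 0.0117). Pfkp thereby made up 76.0% and 67.5% of phosphofructokinase FPKM in papain basophils, against 94.2% and 97.0% in naive basophils, and 52.9% to 69.2% in all other libraries. The Pfkl call was lost without papain library 2 (adjusted p = 0.0878) or naive library 2 (0.119) and under quantile scaling (0.06). The Pfkm call was lost without naive library 2 (adjusted p = 0.0626) and under quantile scaling (0.155). Pfkp in natural helper cells had 18 FPKM in 3'UTRKO and 25 and 27 in other papain cells, against 16 and 17 in naive cells (papain minus naive 0.63 ± 0.20, adjusted p = 0.257). In eosinophils it had 26 and 33 in CD11c+ and 18 and 23 in CD11c- papain cells, against 18 and 20 in naive cells, and neither fraction passed the test.

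Tpi1, which interconverts the triose phosphates, was among the strongest rises of upper glycolysis. It had 45 and 44 FPKM in papain basophils, against 11 and 12 in naive basophils (3.87-fold; 1.87 ± 0.30, adjusted p = 0.0036), and its basophil call held under every alternative run, including the fit of the compared groups alone. It had 17 FPKM in 3'UTRKO and 45 and 42 in other papain natural helper cells, against 11 and 17 in naive ones (papain minus naive 1.60 ± 0.30, adjusted p = 0.0545). In eosinophils it had 54 and 29 in CD11c+ and 41 and 42 in CD11c- papain cells, against 15 and 21 in naive cells. All papain libraries other than 3'UTRKO lay above the naive libraries of their cell type, and the CD11c+ difference passed the test (1.11 ± 0.30, adjusted p = 0.0439) while the CD11c- difference did not (1.18 ± 0.30, adjusted p = 0.0962). That CD11c+ call was lost without CD11c+ library 1 (adjusted p = 0.134), naive library 1 (0.245) or naive library 2 (0.0761), and under median-ratio (0.204) and quantile scaling (0.214).

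Aldoa, the main aldolase, was abundant in all groups and was not called in any papain comparison. It had 352 and 361 FPKM in papain basophils, against 267 and 245 in naive basophils (0.48 ± 0.20, adjusted p = 0.11), and 560 and 577 in CD11c+ and 575 and 534 in CD11c- papain eosinophils, against 606 and 583 in naive eosinophils. In natural helper cells it had 219 in 3'UTRKO and 282 and 282 in other papain cells, against 165 and 260 in naive cells. Gpi1, the isomerase that follows hexokinase, had 72 and 78 FPKM in papain basophils, against 99 and 88 in naive basophils (-0.31 ± 0.14, adjusted p = 0.13). It had 92 in 3'UTRKO and 101 and 107 in other papain natural helper cells, against 61 and 68 in naive ones (papain minus naive 0.68 ± 0.14, adjusted p = 0.0735). Eosinophils had 86 and 74 in the CD11c+ and 96 and 89 in the CD11c- fraction, against 101 and 106 in naive cells. Aldoc lay between 0 and 7 FPKM, and Aldoa made up at least 98.0% of aldolase FPKM in every library.

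The Pfkfb enzymes set the level of the sugar bisphosphate that activates phosphofructokinase. Pfkfb4 had 7 and 7 FPKM in papain basophils, against 1 and 1 in naive basophils (2.00 ± 0.32, adjusted p = 0.00343), and the call held without each single library. Pfkfb3, the inducible form, had 18 and 67 in papain basophils, against 11 and 10 in naive ones (1.65 ± 0.49, adjusted p = 0.038), and lost its call without papain library 2 (adjusted p = 0.103), naive library 1 (0.0908) or naive library 2 (0.163) and under median-ratio (0.112) and quantile scaling (0.143). Neither was called after papain in the other cells: Pfkfb3 was at 6 to 9 in natural helper cells and 14 to 24 in eosinophils, and Pfkfb4 at 1 in every natural helper cell library and 4 to 9 in eosinophils. Pfkfb1 lay between 0 and 3 FPKM throughout.

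In lower glycolysis, 6 of 7 members were called higher in basophils, where 22.1% of all genes were. Pgam1, the phosphoglycerate mutase, had 104 and 81 FPKM in papain basophils, against 25 and 15 in naive basophils (4.62-fold; 2.19 ± 0.30, adjusted p = 0.00167). It had 21 in 3'UTRKO and 62 and 61 in other papain natural helper cells, against 15 and 17 in naive ones (papain over naive 3.84-fold; 1.88 ± 0.30, adjusted p = 0.0256). Eosinophils had 82 and 86 in CD11c+ and 68 and 70 in CD11c- papain cells, against 22 and 40 in naive cells (1.47 ± 0.30, adjusted p = 0.0167, and 1.19 ± 0.30, adjusted p = 0.0905). No papain library overlapped a naive one, and 3'UTRKO lay close above its naive libraries. In natural helper cells the call was lost without each single library (adjusted p = 0.0819 to 0.173), and in CD11c+ eosinophils without CD11c+ library 2 (0.0869) or naive library 1 (0.109).

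Eno1, the main enolase, had 101 and 98 FPKM in papain basophils, against 30 and 23 in naive basophils (3.75-fold; 1.88 ± 0.16, adjusted p = 0.000339). It had 54 in 3'UTRKO and 100 and 107 in other papain natural helper cells, against 38 and 43 in naive ones (papain over naive 2.56-fold; 1.33 ± 0.16, adjusted p = 0.00487). Its basophil call held without each single library and under both other scalings, and its natural helper cell call held under every alternative run. Eosinophils had more of it in the naive state, with 169 and 177 in CD11c+ and 144 and 149 in CD11c- papain cells, against 105 and 121 in naive cells (0.61 ± 0.16, adjusted p = 0.0367, and 0.38 ± 0.16, adjusted p = 0.309). The CD11c+ call was lost without each single library (adjusted p = 0.0599 to 0.207) and under median-ratio (0.458) and quantile scaling (0.0511). Eno2, the neuronal form, had 4 and 6 FPKM in papain basophils and was listed at 0 in both naive ones (2.56 ± 0.56 on the scale with 1 added, adjusted p = 0.0125). That call was lost without papain library 2 (adjusted p = 0.0637) or naive library 2 (0.073). Eno3, the muscle form, had 2 to 9 FPKM in all libraries and was not called.

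Gapdh, which makes NADH at the start of lower glycolysis, had 361 and 253 FPKM in papain basophils, against 114 and 77 in naive basophils (3.21-fold; 1.68 ± 0.26, adjusted p = 0.00291). It had 293 in 3'UTRKO and 360 and 427 in other papain natural helper cells, against 168 and 225 in naive ones (papain minus naive 1.01 ± 0.26, adjusted p = 0.158). Eosinophils had 340 and 326 in CD11c+ and 199 and 259 in CD11c- papain cells, against 194 and 202 in naive cells (0.75 ± 0.26, adjusted p = 0.0913, and 0.20 ± 0.26, adjusted p = 0.827). Its level, often used as a reference for expression assays, was thus called higher in papain than in naive basophils in every fit that left out 1 library and under both other scalings. Those fits share the spread over all groups, and Gapdh was not called with the spread of the basophil libraries alone. Pgk1, the next enzyme and the first to yield ATP, had 142 and 151 FPKM in papain basophils, against 69 and 48 in naive basophils (2.5-fold; 1.33 ± 0.24, adjusted p = 0.0062). It had 67 in 3'UTRKO and 153 and 164 in other papain natural helper cells, against 52 and 76 in naive ones (papain minus naive 1.32 ± 0.24, adjusted p = 0.0539). In eosinophils it had 158 and 183 in CD11c+ and 101 and 121 in CD11c- papain cells, against 55 and 74 in naive cells (1.4 ± 0.24, adjusted p = 0.00956, and 0.78 ± 0.24, adjusted p = 0.175). The basophil call was lost without naive library 2 (adjusted p = 0.0503), and the CD11c+ call without CD11c+ library 2 (0.0633) or naive library 1 (0.0799).

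Pkm2, the pyruvate kinase gene as named in the table, had 173 and 213 FPKM in papain basophils, against 93 and 108 in naive basophils (1.92-fold; 0.93 ± 0.15, adjusted p = 0.00323). Natural helper cells had 133 in 3'UTRKO and 199 and 225 in other papain cells, against 89 and 93 in naive cells (papain over naive 2.33-fold; 1.21 ± 0.15, adjusted p = 0.00642). Eosinophils had 235 and 231 in CD11c+ and 236 and 242 in CD11c- papain cells, against 278 and 275 in naive cells (-0.25 ± 0.15, adjusted p = 0.314, and -0.21 ± 0.15, adjusted p = 0.61). Papain libraries were above naive ones in basophils and natural helper cells and below them in eosinophils, where the differences did not pass the test. The basophil call was lost under median-ratio (adjusted p = 0.24) and quantile scaling (0.0691), and the natural helper cell call after both (0.233 and 0.0914) and without papain library 2 (0.0553).

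**Figure D4:**
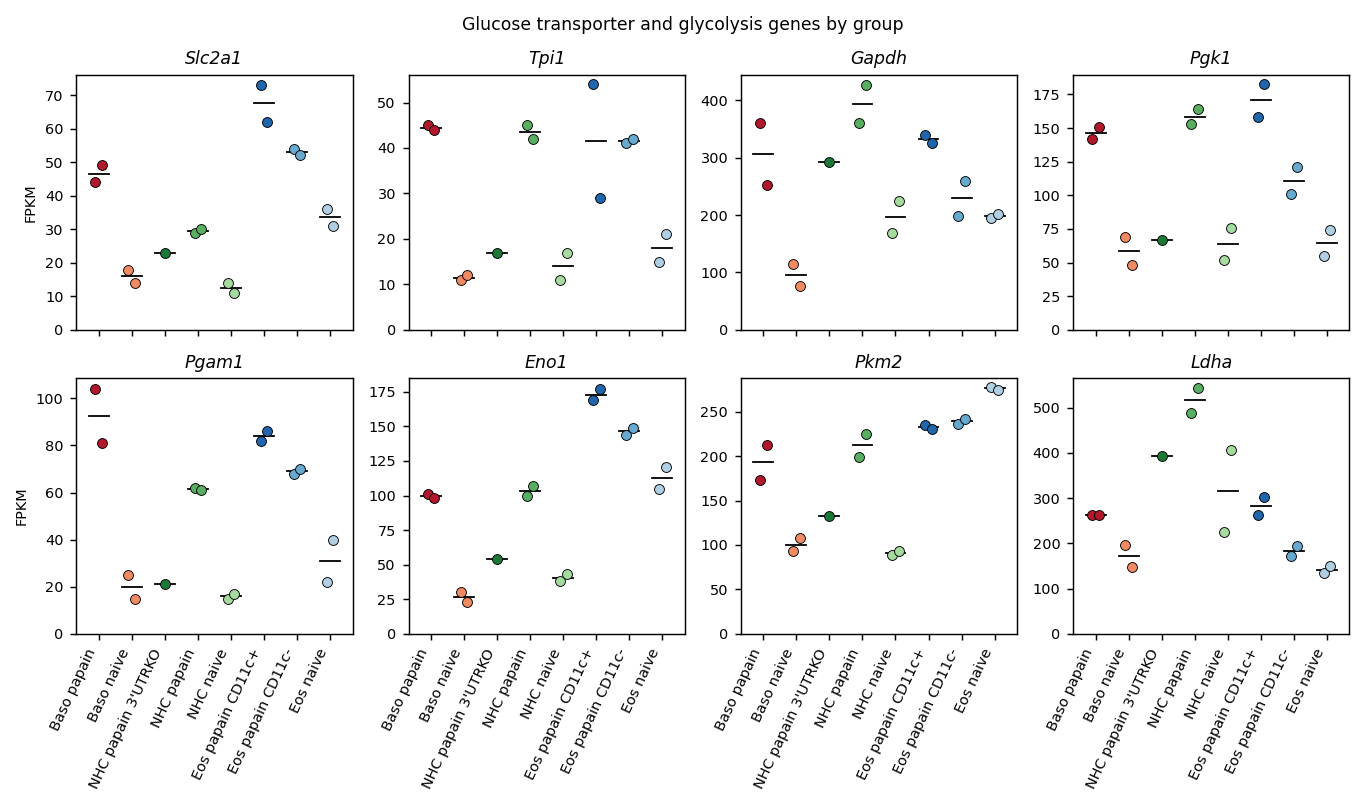
Level in FPKM of Slc2a1, Tpi1, Gapdh, Pgk1, Pgam1, Eno1, Pkm2 and Ldha in the 8 groups; each point is a library, each bar the mean of a group, and each panel has its own axis from 0. The 3'UTRKO library lies below both other papain natural helper cell libraries in all 8 panels, for example at 21 FPKM against 62 and 61 for Pgam1.

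Lactate dehydrogenase and the monocarboxylate carriers did not move together. Ldha, which turns pyruvate into lactate, had 262 and 262 FPKM in papain basophils, against 197 and 148 in naive basophils (0.61 ± 0.26, adjusted p = 0.121). It was highest in natural helper cells, with 392 in 3'UTRKO and 489 and 544 in other papain cells, against 224 and 406 in naive cells (papain minus naive 0.77 ± 0.26, adjusted p = 0.295). Eosinophils had 262 and 302 in CD11c+ and 173 and 194 in CD11c- papain cells, against 135 and 149 in naive cells (0.98 ± 0.26, adjusted p = 0.0436, and 0.37 ± 0.26, adjusted p = 0.617). The papain libraries lay above the naive ones in all 3 cell types except that naive natural helper cell library 2 exceeded the 3'UTRKO library. The CD11c+ call was lost without each single library (adjusted p = 0.0696 to 0.209) and after median-ratio scaling (0.239).

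Ldhb, the form that favours pyruvate, made up at most 7.42% of lactate dehydrogenase FPKM in any library but was called in 3 of the 4 comparisons of papain with naive cells. It had 21 and 14 FPKM in papain basophils, against 5 and 8 in naive basophils (1.31 ± 0.32, adjusted p = 0.0193). Eosinophils had 9 and 6 in CD11c+ and 7 and 5 in CD11c- papain cells, against 1 and 1 in naive cells (2.06 ± 0.32, adjusted p = 0.00575, and 1.79 ± 0.32, adjusted p = 0.0256). Natural helper cells had 9 in 3'UTRKO and 5 and 7 in other papain cells, against 10 and 13 in naive cells (papain minus naive -0.84 ± 0.32, adjusted p = 0.356). The papain sorts in which Ldhb rose also had more fibroblast, epithelial and alveolar macrophage marker RNA than the naive sorts. Fibroblast markers were also higher in other papain (501 to 670 FPKM) than in naive natural helper cells (326 to 468), where Ldhb was lower by value. The part of such cells was not tested. The basophil call was lost without papain library 1 (adjusted p = 0.0762) or naive library 1 (0.0812) and under both other scalings (0.147 and 0.239), and the CD11c- call without each single library (0.0756 to 0.172). The CD11c+ call was lost under quantile scaling (adjusted p = 0.0518).

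Slc16a1, a monocarboxylate carrier, had 12 and 8 FPKM in papain basophils, against 3 and 1 in naive basophils (1.94 ± 0.42, adjusted p = 0.0125). Eosinophils had 9 and 8 in CD11c+ and 4 and 5 in CD11c- papain cells, against 0 and 1 in naive cells (2.75 ± 0.42, adjusted p = 0.00534, and 1.95 ± 0.42, adjusted p = 0.0536). The natural helper cells had 4 in 3'UTRKO and 10 and 12 in other papain cells, against 5 and 7 in naive cells (papain minus naive 0.79 ± 0.42, adjusted p = 0.547). The basophil call was lost without papain library 1 (adjusted p = 0.0524) or naive library 2 (0.0872), while the CD11c+ call held without each single library and under both other scalings. Slc16a3, the carrier known for exporting lactate from glycolytic cells, went the other way in granulocytes. It had 37 and 73 FPKM in papain basophils, against 125 and 127 in naive basophils (-1.26 ± 0.38, adjusted p = 0.0411), a call lost without papain library 1 (0.197), naive library 1 (0.104) or naive library 2 (0.16). In eosinophils it had 87 and 58 in CD11c+ and 120 and 85 in CD11c- papain cells, against 252 and 132 in naive cells (-1.35 ± 0.38, adjusted p = 0.0534, and -0.85 ± 0.38, adjusted p = 0.363). In natural helper cells it had 6 in 3'UTRKO and 14 and 14 in other papain cells, against 5 and 6 in naive cells (papain minus naive 1.21 ± 0.38, adjusted p = 0.259).

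In the pentose phosphate pathway, 1 member moved in basophils and another in eosinophils. Pgd, the second dehydrogenase and a source of NADPH, had 96 and 132 FPKM in papain basophils, against 30 and 26 in naive basophils (4.07-fold; 1.97 ± 0.24, adjusted p = 0.00107), and the call held without each single library and under both other scalings. Eosinophils spanned much the range of papain basophils in every group, with 118 and 108 in CD11c+ and 123 and 125 in CD11c- papain cells, against 100 and 135 in naive cells. Natural helper cells had 19 in 3'UTRKO and 18 and 26 in other papain cells, against 14 and 11 in naive cells (papain minus naive 0.76 ± 0.24, adjusted p = 0.258). Taldo1, the transaldolase of the non-oxidative branch, had 254 and 248 FPKM in CD11c+ and 409 and 306 in CD11c- papain eosinophils, against 924 and 725 in naive eosinophils (-1.70 ± 0.23, adjusted p = 0.00275, and -1.21 ± 0.23, adjusted p = 0.0331). The CD11c+ mean was 0.304 times and the CD11c- mean 0.434 times the naive mean. Its CD11c+ call held without each single library and under both other scalings, and its CD11c- call was lost without each single library (adjusted p = 0.0718 to 0.253). Papain basophils had 194 and 300 FPKM of Taldo1, against 206 and 209 in naive basophils, and natural helper cells had 41 in 3'UTRKO and 60 and 67 in other papain cells, against 51 and 51 in naive cells.

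The remaining pentose phosphate genes were not called after papain. G6pdx, the first and rate-limiting dehydrogenase, had 18 and 12 FPKM in papain basophils, against 10 and 8 in naive basophils (0.66 ± 0.29, adjusted p = 0.129), and 27 and 41 in CD11c+ and 30 and 26 in CD11c- papain eosinophils, against 30 and 40 in naive eosinophils. In natural helper cells it had 6 in 3'UTRKO and 9 and 10 in other papain cells, against 6 and 4 in naive cells. Tkt, the transketolase, had 51 and 23 FPKM in papain basophils, against 20 and 15 in naive basophils (0.95 ± 0.36, adjusted p = 0.082). It had 22 in 3'UTRKO and 38 and 44 in other papain natural helper cells, against 16 and 25 in naive ones, and 32 and 27 in CD11c+ and 33 and 26 in CD11c- papain eosinophils, against 57 and 51 in naive eosinophils. Tkt libraries therefore did not overlap between papain and naive cells in any cell type, upwards in basophils and, 3'UTRKO apart, in natural helper cells and downwards in eosinophils. Pgls, the lactonase, lay between 12 and 56 FPKM, Rpia between 3 and 14 and Rpe between 1 and 10.

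**Figure D5:**
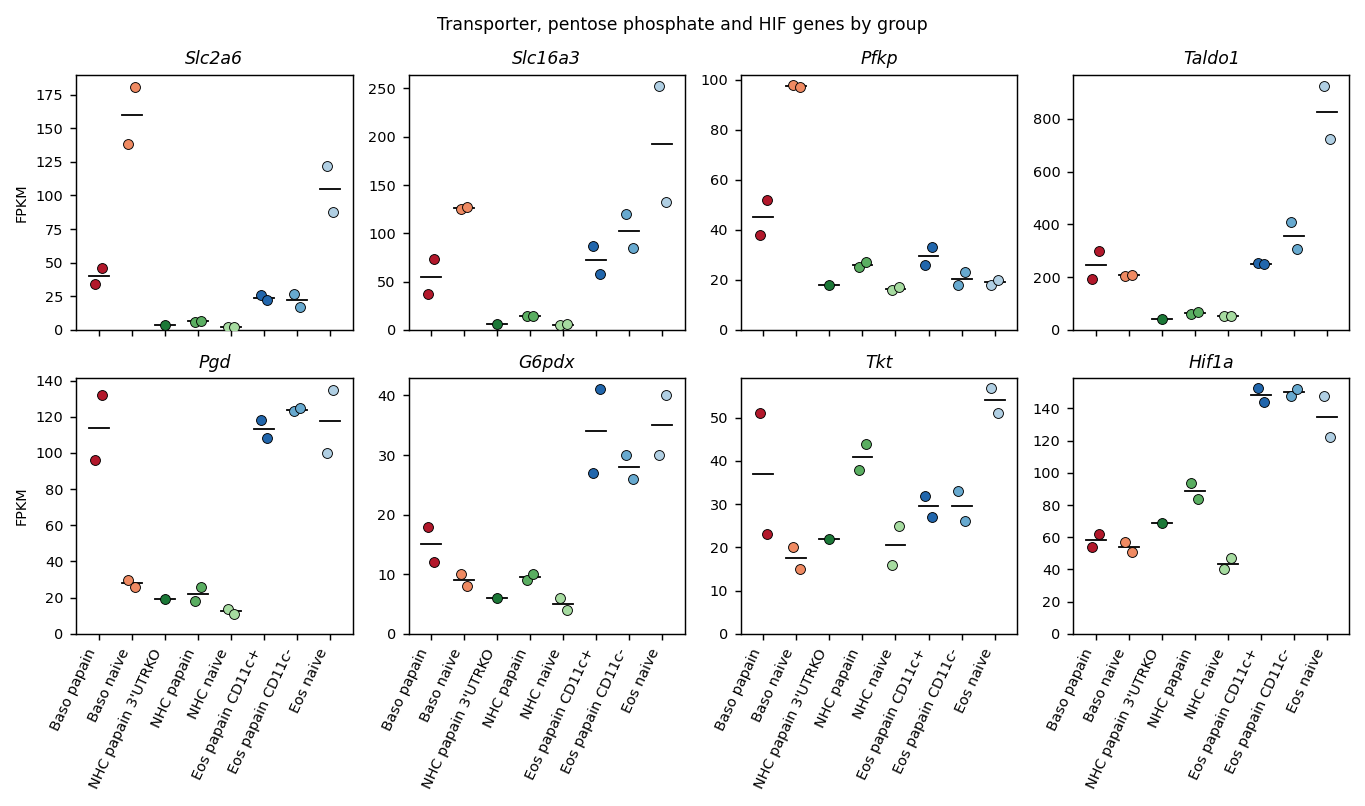
Level in FPKM of Slc2a6, Slc16a3, Pfkp, Taldo1, Pgd, G6pdx, Tkt and Hif1a in the 8 groups; each point is a library, each bar the mean of a group, and each panel has its own axis from 0. Taldo1 and Slc2a6 are lower in both papain eosinophil fractions than in naive eosinophils, and Pgd in papain basophils (96 and 132 FPKM) reaches the level of eosinophils.

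Pdha1, a subunit of the pyruvate dehydrogenase that feeds mitochondria, had 25 and 25 FPKM in papain basophils, against 10 and 10 in naive basophils (1.24 ± 0.17, adjusted p = 0.00174). Eosinophils had 19 and 15 in CD11c+ and 14 and 16 in CD11c- papain cells, against 7 and 9 in naive cells (1.00 ± 0.17, adjusted p = 0.00838, and 0.84 ± 0.17, adjusted p = 0.042). Natural helper cells had 32 in 3'UTRKO and 40 and 39 in other papain cells, against 32 and 32 in naive cells. Papain levels were thus above naive ones in the granulocytes, while natural helper cells were high in both states. The basophil call was lost after quantile normalization (adjusted p = 0.0581), the CD11c+ call without naive library 1 (0.0701) and under both other scalings (0.0825 and 0.145), and the CD11c- call without each single library (0.0735 to 0.303). Pdk1, a kinase that shuts pyruvate dehydrogenase off, had 4 to 8 FPKM in natural helper cells and 0 to 2 in the other cells. Hif1a had 69 FPKM in 3'UTRKO and 94 and 84 in other papain natural helper cells, against 40 and 47 in naive ones (papain over naive 2.05-fold; 1.02 ± 0.16, adjusted p = 0.0206). This call was lost without papain library 1 (adjusted p = 0.155), papain library 2 (0.0782) or naive library 1 (0.0805) and under both other scalings (0.34 and 0.143). Papain basophils had 54 and 62 FPKM of Hif1a, against 57 and 51 in naive basophils, and eosinophils had 153 and 144 in CD11c+ and 148 and 152 in CD11c- papain cells, against 148 and 122 in naive cells.

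The 3'UTRKO library was set against the other papain natural helper cells, and 0 of 37 members were called higher (all genes: 0.21%) or lower (all genes: 0.358%) by limma, with 8 at an unadjusted p under 0.05. By value, it lay below both other papain libraries for 24 of 37 members, where 37.7% of all genes did so, and above both for 5 of 37, where 20.1% did so. Pgam1 had 21 FPKM in 3'UTRKO, against 62 and 61 in other papain cells (0.342 times the papain mean; -1.51 ± 0.36, adjusted p = 0.18), Tpi1 17 in 3'UTRKO, against 45 and 42 in other papain cells (0.391 times; adjusted p = 0.283), and Pgk1 67 in 3'UTRKO, against 153 and 164 in other papain cells (0.423 times; adjusted p = 0.186). Eno1 had 54 in 3'UTRKO, against 100 and 107 in other papain cells (0.522 times; adjusted p = 0.106), the lowest adjusted p among members. The 5 members above both papain libraries (Eno3, Pfkm, Pfkfb3, Ldhb and Pdk1) had at most 9 FPKM in 3'UTRKO, as for Eno3, with 9 in 3'UTRKO, against 4 and 4 in other papain cells. With 1 library there is no replicate of this group, and its spread is assumed to be that of the others. The 3'UTRKO library was set beside naive cells by value only, with no test. When the spread came from the 3 papain libraries alone, 7 of 37 members were called, as were 19.1% of all genes. Epithelial markers summed to 4538 FPKM in the 3'UTRKO library, against 739 to 2088 in the other papain libraries. Scgb1a1 alone had 4273 FPKM, against 681 and 1921. Krt8, Krt18, Krt19 and Scgb3a2 also lay above both other papain libraries, while Sftpc lay below both (3, against 26 and 19), as did Sftpb and Sftpa1. Natural helper cell markers summed to 3280 in 3'UTRKO, against 4214 to 4265. The part of these markers in the values was not tested.

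The CD11c+ and CD11c- papain eosinophils did not differ past the test for any member: 0 of 37 were called higher (all genes: 0.0281%) and 0 lower (all genes: 0.0281%) by limma, and 3 had an unadjusted p under 0.05. The members with the largest standardised differences were Pfkp, with 26 and 33 FPKM in CD11c+ against 18 and 23 in CD11c- cells (0.50 ± 0.20, adjusted p = 0.522), Pgk1 with 158 and 183 in CD11c+ against 101 and 121 in CD11c- cells (0.62 ± 0.24, adjusted p = 0.527) and Ldha with 262 and 302 in CD11c+ against 173 and 194 in CD11c- cells (0.62 ± 0.26, adjusted p = 0.551). For each of the 3, the CD11c+ libraries lay above the CD11c- libraries.

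The naive cell types differed in many members. Naive basophils against naive eosinophils had 3 called higher (all genes: 5.3%) and 12 lower (all genes: 8.66%). Naive basophils against naive natural helper cells had 8 called higher (all genes: 6.96%) and 5 lower (all genes: 13.6%). Naive natural helper cells against naive eosinophils had 6 called higher (all genes: 16.5%) and 15 lower (all genes: 11.6%). Naive eosinophils were thus above naive basophils for 12 members and above naive natural helper cells for 15, and these comparisons share libraries, so their counts are not independent.

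Of the 7 pentose phosphate genes, 4 (G6pdx, Pgd, Tkt and Taldo1) were called lower in naive basophils and in naive natural helper cells than in naive eosinophils. Pgls, Rpia and Rpe were not called. Taldo1 had 206 and 209 FPKM in naive basophils, 51 and 51 in naive natural helper cells and 924 and 725 in naive eosinophils, so that basophils stood at 0.252 times (-1.97 ± 0.23, adjusted p = 0.00064) and natural helper cells at 0.0619 times (-3.98 ± 0.23, adjusted p = 9.6e-06) the eosinophil level. Pgd had 30 and 26 in naive basophils, 14 and 11 in naive natural helper cells and 100 and 135 in naive eosinophils (basophils minus eosinophils -2.02 ± 0.24, adjusted p = 0.000748; natural helper cells minus eosinophils -3.13 ± 0.24, adjusted p = 3.96e-05). G6pdx was lower in both naive basophils (-1.84 ± 0.29, adjusted p = 0.00337) and naive natural helper cells (-2.59 ± 0.29, adjusted p = 0.000263) than in naive eosinophils. These 3 genes, the oxidative dehydrogenases and transaldolase, kept their calls against eosinophils without each single library and under both other scalings. Between basophils and natural helper cells, Taldo1 was higher in basophils (2.00 ± 0.23, adjusted p = 0.000528). Among glycolytic genes, Eno1 (-2.06 ± 0.16 in basophils and -1.46 ± 0.16 in natural helper cells), Pkm2 (-1.45 ± 0.15 and -1.59 ± 0.15) and Hif1a (-1.30 ± 0.16 and -1.61 ± 0.16) were likewise lower than in eosinophils, with the same stability. Summed neutrophil markers were at 268 to 537 FPKM in naive basophils, 21 to 173 in naive natural helper cells and 8784 to 16571 in naive eosinophils. Most of the eosinophil sum was Retnlg, at 13759 and 7600 FPKM, and S100a8 and S100a9 made up most of the rest. Cxcr2 was lower in naive eosinophils (18 and 11) than in naive basophils (32 and 26). The part of neutrophil RNA in these differences was not tested.

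Naive basophils had more Pfkp and Hk3 than both other naive cell types, and more Slc2a6 and Slc16a3 than natural helper cells. Pfkp stood at 98 and 97 FPKM in naive basophils, with 16 and 17 in naive natural helper cells (2.49 ± 0.20, adjusted p = 8.14e-05) and 18 and 20 in naive eosinophils (2.30 ± 0.20, adjusted p = 0.000171). Slc2a6 stood at 138 and 181 in naive basophils, with 2 and 2 in naive natural helper cells (5.73 ± 0.27, adjusted p = 6.49e-06) and 122 and 88 in naive eosinophils (0.60 ± 0.27, adjusted p = 0.203). Slc16a3 stood at 125 and 127 in naive basophils, with 5 and 6 in naive natural helper cells (4.29 ± 0.38, adjusted p = 0.000157) and 252 and 132 in naive eosinophils (-0.53 ± 0.38, adjusted p = 0.472). Both genes were thus low in natural helper cells, and the test did not separate the 2 naive granulocytes in either. Hk3 was higher in naive basophils than in naive natural helper cells (3.89 ± 0.40, adjusted p = 0.000299) and than in naive eosinophils (1.80 ± 0.40, adjusted p = 0.0173), the second call being lost without naive basophil library 2 (adjusted p = 0.106), naive eosinophil library 1 (0.092) or 2 (0.0821).

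Naive natural helper cells had more Pdha1, Ldha, Ldhb, Slc16a1 and Pdk1 than naive eosinophils, and less Pkm2 and Slc16a3. Pdha1 had 10 and 10 FPKM in naive basophils, 32 and 32 in naive natural helper cells and 7 and 9 in naive eosinophils (basophils minus natural helper cells -1.58 ± 0.17, adjusted p = 0.000395; natural helper cells minus eosinophils 1.88 ± 0.17, adjusted p = 8.99e-05). Ldhb (2.63 ± 0.32, adjusted p = 0.000404) and Slc16a1 (2.29 ± 0.42, adjusted p = 0.00374) were higher in naive natural helper cells than in naive eosinophils, and both calls held without any 1 library. Ldha was also higher there (1.08 ± 0.26, adjusted p = 0.0146), a call lost without naive natural helper cell library 2 (adjusted p = 0.0611), naive eosinophil library 1 (0.085) or 2 (0.0518). Pdk1 had 8 and 6 FPKM in naive natural helper cells, against 0 and 1 in naive eosinophils (2.49 ± 0.55, adjusted p = 0.0094), lost without naive natural helper cell library 1 (0.0632) or naive eosinophil library 1 (0.0773).

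Whether papain responses differed between cell types was tested as a difference of differences. The response of basophils minus that of natural helper cells was called higher for 3 of 37 members (all genes: 4.64%) and lower for 5 (all genes: 2.12%). The response of basophils minus that of CD11c- eosinophils was called higher for 3 (all genes: 1.61%) and lower for 0 (all genes: 0.751%), and that of natural helper cells minus CD11c- eosinophils higher for 2 (all genes: 0.61%) and lower for 1 (all genes: 0.596%). Slc2a6 differed most: the basophil response lay below that of natural helper cells by a log2 difference of -3.29 ± 0.38 (adjusted p = 0.0034), and the natural helper cell response lay above that of CD11c- eosinophils by 3.54 ± 0.38 (adjusted p = 0.0091; 0.0522 without naive eosinophil library 1). Pfkp also responded lower in basophils than in natural helper cells (-1.74 ± 0.28, adjusted p = 0.00977), and these differences between basophils and natural helper cells held without each single library and under both other scalings. Eno1 rose more in basophils than in CD11c- eosinophils (1.51 ± 0.22, adjusted p = 0.0102), a call lost with quantile normalization (0.135) and with rescaling without small RNA genes (0.0772). For Pgam1, Tpi1, Pgk1 and Slc2a1, no difference of responses passed the test (adjusted p from 0.145 to 1); between basophils and natural helper cells the differences were 0.30 ± 0.42 for Pgam1, 0.27 ± 0.42 for Tpi1, 0.01 ± 0.35 for Pgk1 and 0.31 ± 0.26 for Slc2a1.

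The neighbouring pathways were followed with 3 other lists. Their counts are to be read against the shares of all genes called, 22.1% higher and 3.88% lower in basophils, 9.93% and 2.2% in CD11c+ eosinophils, 1.87% and 0.372% in CD11c- eosinophils and 0.54% and 0.245% in natural helper cells. Of 27 tested genes of pyruvate oxidation and the citrate cycle, 12 were called higher and 1 lower in papain against naive basophils, 3 and 1 in CD11c+ eosinophils, and 0 in natural helper cells and in CD11c- eosinophils. Dlat, a core subunit of pyruvate dehydrogenase, had 7 and 3 FPKM in papain basophils, against 1 and 0 in naive basophils, and its partner Pdhb had 41 and 39 in papain basophils, against 19 and 10 in naive ones (1.47 ± 0.27, adjusted p = 0.00678). Pdk4, a kinase that restrains the same complex, had 6 and 19 in papain basophils, against 1 and 2 in naive ones (2.27 ± 0.63, adjusted p = 0.0288). Of 22 tested genes of the HIF pathway and its targets, 7 were called higher and 1 lower in basophils, 8 and 0 in CD11c+ eosinophils, 2 and 0 in CD11c- eosinophils and 0 and 1 in natural helper cells. Epas1, the HIF-2 alpha chain, also known from endothelium, had 36 and 75 FPKM in papain basophils, against 6 and 1 in naive basophils (3.83 ± 0.66, adjusted p = 0.00496). Endothelial markers, with 8 of 8 above 0 in papain and 2 to 7 in naive libraries, summed to 114 to 349 FPKM in papain basophils, against 29 to 50 in naive basophils. Among basophil libraries, Epas1 and these markers were highest in papain library 2, as were the summed epithelial and neutrophil markers. In natural helper cells Epas1 had 47 FPKM in 3'UTRKO and 56 and 57 in other papain cells, against 15 and 16 in naive cells, not called. Endothelial markers there summed to 14 in 3'UTRKO and 24 to 30 in other papain cells, against 30 to 40 in naive cells. In eosinophils both Epas1 and the endothelial sums were higher in papain than in naive libraries. Bnip3, a hypoxia-induced mitochondrial protein, had 13 and 28 in papain basophils, against 2 and 2 in naive ones (2.75 ± 0.40, adjusted p = 0.0024). Other genes of this list lay lower in papain than in naive basophils by value. Ddit4 had 51 and 177 FPKM in papain basophils, against 277 and 262 in naive ones, and Ero1l 52 and 112, against 229 and 134. Vegfa had 49 and 176 in papain basophils, against 177 and 199 in naive ones, and Mxi1 13 and 6, against 27 and 31. In eosinophils Adm, a hypoxia-induced peptide hormone, had 12 and 14 FPKM in the CD11c+ and 6 and 6 in the CD11c- fraction and was listed at 0 in both naive libraries. Ndrg1, another hypoxia-induced gene, had 44 and 38 in CD11c+ papain eosinophils, against 4 and 7 in naive eosinophils (2.73 ± 0.49, adjusted p = 0.0107). Of 21 tested genes of other sugar metabolism, 3 were called higher in basophils and 2 in CD11c+ eosinophils, 0 in CD11c- eosinophils and 1 lower in natural helper cells. Pgm1, as named in the deposited data, had 18 and 20 FPKM in papain basophils, against 4 and 2 in naive basophils (2.37 ± 0.40, adjusted p = 0.00434). The differences in basophils and eosinophils came with the marker shifts given above, whose part in them was not tested.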

How the data were processed

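Poly(A) RNA was sequenced from sorted lung cells, per the labels' protocols. Reads were aligned with TopHat 1.4.0 and quantified with Cufflinks 1.3.0 on mouse build mm9, per the submitters' processing notes. The authors deposited 1 table of 21110 genes by 15 libraries; its whole numbers are read as FPKM rounded by the authors (a score, since rounding removed the decimals), which the values and Cufflinks give but no header states. Commas inside digits were removed in 1008 cells, 3 cells next to 0 were set to 0, and 25 gene symbols are dates made by a spreadsheet. Counts and depth are unknown, so no counting interval is given, and rounding limits genes of a few FPKM.

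Levels were tested as log2(FPKM + 1) with limma 3.58.1 in R 4.3.3 (trended moderation, two-sided, Benjamini-Hochberg over all genes): 14257 genes with at least 1 FPKM in 2 or more libraries, 1 model of 15 libraries with a coefficient per group, 7 residual degrees of freedom and 1.87 prior ones. The 12 comparisons share this spread. The procedure was tested on simulated data. Levels of all 37 members may be named, in full where a group mean reaches 10 FPKM or a call was made; from the other pathway lists, up to 3 called genes per comparison with the largest changes and a group mean of at least 5 FPKM. The members and lists were chosen with earlier results of these data known. Alternatives were a pseudocount of 5, no filter, median-ratio and quantile scaling, a replicate block, the compared groups alone, each library left out and, added after seeing the data, rescaling without 495 small RNA genes. The labels do not say that replicates are separate animals, so p-values may measure technical spread. Start regions are RefSeq's on GRCm38.p6; no coordinates were converted.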

Additional observations from a re-analysis of the deposited data

Results flagged for a closer look

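The members below were noted because their papain response differed between cell types in limma's test of the difference itself, on the log2(FPKM + 1) scale. Against the response of CD11c- eosinophils, the basophil response was higher for Eno1 by 1.51 ± 0.22 (adjusted p = 0.0102), for Pkm2 by 1.14 ± 0.21 (adjusted p = 0.0281) and for Pgd by 1.88 ± 0.34 (adjusted p = 0.0276). Against the response of natural helper cells, the basophil response was higher for Pfkm by 1.70 ± 0.42 (adjusted p = 0.0489), for Pfkfb4 by 2.00 ± 0.45 (adjusted p = 0.0353) and for Ldhb by 2.15 ± 0.45 (adjusted p = 0.0278). It was lower than that of natural helper cells for Slc2a6 (-3.29 ± 0.38, adjusted p = 0.0034), Pfkp (-1.74 ± 0.28, adjusted p = 0.00977), Gpi1 (-0.995 ± 0.19, adjusted p = 0.02), Slc16a3 (-2.47 ± 0.54, adjusted p = 0.0322) and Hif1a (-0.92 ± 0.22, adjusted p = 0.0437). Against the response of CD11c- eosinophils, the natural helper cell response was higher for Slc2a6 (3.54 ± 0.38, adjusted p = 0.0091) and Pkm2 (1.42 ± 0.21, adjusted p = 0.0181) and lower for Ldhb (-2.63 ± 0.45, adjusted p = 0.036). Of these 14 differences, 3 held without any 1 library: those of Slc2a6 and Pfkp between basophils and natural helper cells and that of Eno1 between basophils and CD11c- eosinophils.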

How the results depend on the processing

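No member's difference turned round in sign past the threshold under any alternative run, while calls were lost in 332 and gained in 69 of the recomputed member values. Against the counts of members called that the report gives, the spread of the compared groups alone gave 1 in basophils, 2 in natural helper cells, 0 in CD11c- and 1 in CD11c+ eosinophils, 7 for 3'UTRKO, 7 for naive basophils against eosinophils and 5 for naive basophils against natural helper cells; it gave 4 for the response of basophils minus that of natural helper cells and 5 for that of natural helper cells minus CD11c- eosinophils. Without replicate 1 or 2 of a group in turn, counts lay between 13 and 18 in basophils, 1 and 6 in natural helper cells, 0 and 1 in CD11c- and 4 and 9 in CD11c+ eosinophils, and for the differences of responses between 2 and 12 (basophils and natural helper cells), 1 and 7 (basophils and CD11c- eosinophils) and 0 and 2 (natural helper cells and CD11c- eosinophils). Median-ratio scaling gave 2 in natural helper cells (all genes: 0.365%) and, for the differences in the same order, 5 for the first and 1 for the third. Quantile normalization gave 3 in natural helper cells (all genes: 0.393%), 2 in CD11c- eosinophils, and 0 for the second and 1 for the third difference. A pseudocount of 5 gave 2 in CD11c- eosinophils (all genes: 1.29%). Rescaling without small RNA genes, chosen after seeing the data, gave 5, 1 and 1 for the 3 differences. With the replicate block, counts were 3 in natural helper cells, 1 in CD11c- eosinophils and 5 for the first difference; the labels' numbers were not taken as pairs, since same-numbered libraries of 21 group pairs correlated at -0.153 to 0.116 in their deviations and 1 pair exceeded 0.1. All other counts stayed within 1.5 times those reported. The cause of these changes was not tested; leaving libraries out or using only the compared groups leaves fewer libraries to estimate the spread. Read depth is unknown and limits low genes such as Aldoc, Eno2 and Pfkfb1.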
